A study of Mus musculus with 13 samples.

Results

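Corticosteroid receptor response genes were examined in mouse aorta. They are 9 genes that the mineralocorticoid receptor, the glucocorticoid receptor or both are known to induce in many tissues: Sgk1, Fkbp5, Tsc22d3, Zbtb16, Klf9, Errfi1, Fam107a, Ddit4 and Pik3r1. The rows of the expression table were chosen by gene symbol, and all 9 were found among 21225 genes. The study measured total RNA of whole aorta from male C57BL/6 mice on 13 arrays, to ask about shifts in vascular RNA in aging and the role of the receptor in smooth muscle. Wild-type mice, called MR-intact, gave 3 young and 4 aged arrays. Mice that lack the mineralocorticoid receptor in smooth muscle cells, called knockout, gave 3 young and 3 aged arrays. Young mice were 3 to 4 months old per the design text and 3 months per the extraction protocol, and aged mice were 12 months old in both. No source used here gives the Cre driver of the deletion, a treatment, a hormone level or the hour at which tissue was taken. The letter in the sample titles differed between all young and all aged arrays, so whatever it marks cannot be told apart from age. Nothing in the labels ties each array to an animal of its own, so every p-value reflects only spread among these samples, some of which may be technical.

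Both receptors are transcription factors that wait in the cytoplasm on a chaperone complex and move to the nucleus once a steroid binds. The mineralocorticoid receptor responds to aldosterone and, where the cell does not inactivate it, to corticosterone, and the glucocorticoid receptor responds to corticosterone. They recognise the same DNA element, an inverted repeat, so that most of their target genes can answer to either. In arteries, smooth muscle receptors of this family are known for effects on tone, stiffness and remodelling. The 9 genes fall into 3 roles. Fkbp5, Tsc22d3, Zbtb16 and Klf9 encode a feedback co-chaperone and regulators of transcription. Sgk1, Errfi1, Pik3r1 and Ddit4 encode parts or brakes of growth factor and PI3K signalling, and Fam107a encodes a protein that binds actin.

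Levels are log2 values after robust multi-array averaging, a normalization that puts all arrays on 1 scale, and a difference of 1 is a doubling. Every array had a lower quartile of 3.89 to 4.14 and a median of 5.85 to 5.97. All 9 genes lay above the lower quartile on every array, and 8 lay above the median on every array; the lowest value of any of them was 5.75. All 12 smooth muscle markers lay above the upper quartile on all 13 arrays. Arrays of the aged knockout group differed most among themselves. Their lowest correlation across genes was 0.983, against 0.992 within the other groups. The mean of 14 B lymphocyte and plasma cell markers was 9.03, 7.25 and 7.31 on aged knockout arrays 1, 2 and 3. Aged MR-intact arrays held it at 5.66 to 6.16. Aged knockout array 2 also had the lowest smooth muscle mean (9.93, against 10.52 to 10.91 on all other arrays) and the highest mean of 12 liver markers (5.99, against 4.32 to 5.01). Results that rest on that array are given with and without it.

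The receptor genes come first because Nr3c2, the mineralocorticoid receptor gene, is the one deleted. Young MR-intact arrays read 6.68, 6.62 and 6.69 for it and young knockout arrays 6.26, 6.09 and 6.42. In aged aorta the MR-intact arrays read 7.12, 6.86, 6.80 and 7.24 and the knockout arrays 6.14, 6.22 and 6.58. Every knockout array was thus below every MR-intact array. The limma test over all genes did not call that difference, which was -0.55 over both ages (SE 0.09, limma adjusted p = 0.175). Cells other than smooth muscle keep the gene, and no source used here places the probes relative to the deleted part, so the probes may lie outside it. Nr3c1, the glucocorticoid receptor gene, lay between 8.86 and 9.09 on all 13 arrays, and its knockout difference was 0.03 over both ages (95% interval -0.07 to 0.13).

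**Figure D1:**
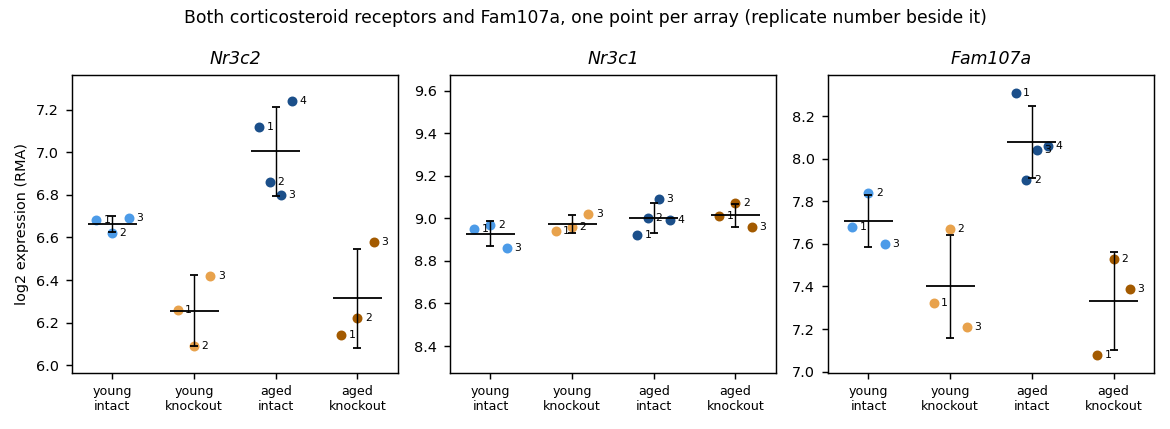
Log2 expression of Nr3c2, Nr3c1 and Fam107a on each array, by group, over axes of equal span. Points are arrays with their replicate number, bars are group means and whiskers are 1 SD (n = 3, or 4 in aged MR-intact). Nr3c2 is lower on all knockout arrays, Nr3c1 is flat between 8.86 and 9.09, and Fam107a separates the genotypes in aged aorta.

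Errfi1 and Pik3r1 fell with age, and they were the only members that passed the limma test (p under 0.05 after Benjamini-Hochberg adjustment for all 21225 genes) in any of 7 comparisons. Errfi1 encodes an inhibitor of the epidermal growth factor receptor, made when that receptor or a steroid receptor is active. Pik3r1 encodes the regulatory subunit that holds PI3 kinase ready at activated receptors and curbs it otherwise. Both calls came from aging averaged over the genotypes, where 2 of 9 members were called, both lower, against 1.49% of all genes, or 0.711% called lower.

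Errfi1 read 10.44, 10.62 and 10.32 on young and 9.95, 9.22, 9.41 and 10.03 on aged arrays of MR-intact mice. Young knockout arrays read 10.19, 10.23 and 10.03 and aged knockout arrays 9.51, 9.15 and 9.63. Within each genotype every aged array was below every young one. Group means for MR-intact mice were 10.46 ± 0.15 (SD, n = 3) in young and 9.65 ± 0.40 (SD, n = 4) in aged aorta. For knockouts they were 10.15 ± 0.10 (SD, n = 3) in young and 9.43 ± 0.25 (SD, n = 3) in aged aorta. Averaged over genotypes Errfi1 fell by 0.76 (95% interval -1.06 to -0.47, SE 0.13, limma adjusted p = 0.0169), to 0.589 of the young level. An exact two-sided permutation test within genotypes gave p = 0.00286 over 700 regroupings. MR-intact aorta alone gave -0.81 (limma adjusted p = 0.139) and knockout aorta alone -0.72 (limma adjusted p = 0.111), neither of which passed the test. The difference of these changes was 0.09 (95% interval -0.50 to 0.67).

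Pik3r1 read 10.31, 10.19 and 10.43 on young and 9.79, 9.64, 9.92 and 9.94 on aged MR-intact arrays, with no overlap. On knockout arrays it read 10, 9.97 and 10.26 in young and 9.69, 9.81 and 9.99 in aged aorta, where the groups overlapped. Averaged over genotypes it fell by 0.37 (95% interval -0.53 to -0.20, SE 0.08, limma adjusted p = 0.0395), to 0.776 of the young level, with an exact permutation p = 0.00286. The MR-intact change was -0.49 (95% interval -0.72 to -0.26) and the knockout change -0.25 (95% interval -0.49 to 0.00), and the test of their difference, 0.24, gave limma adjusted p = 0.685.

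Fewer cells of a type and less RNA per cell cannot be told apart in whole aorta, and other cell markers moved with age too. Fibroblast markers fell: 5 of 12 were called lower with age averaged over genotypes, among them Col1a1 (-1.12, limma adjusted p = 2.47e-05) and Fbln1 (-0.67, limma adjusted p = 0.000537), matrix genes of fibroblasts. The mean of the fibroblast list was 9.71 to 9.85 on young arrays, 9.42 to 9.58 on aged MR-intact and 9.05 to 9.30 on aged knockout arrays, so it did not overlap between ages. Of 12 endothelial markers none was called by limma, and 8 had an unadjusted p under 0.05, all lower in aged aorta, as 16.4% of all genes did in either direction. Their mean was 8.34 to 8.56 on young and 8.15 to 8.25 on aged arrays other than aged knockout array 2, at 8.51. Cd68 (0.54, limma adjusted p = 0.0117) and Lyz2 (0.56, limma adjusted p = 0.0471), genes of macrophages, rose. With the fibroblast mean as a covariate, Errfi1 differed by -0.03 (limma adjusted p = 0.969) and Pik3r1 by -0.09 (limma adjusted p = 0.839). Because that mean did not overlap between ages, this fit can hardly tell it from age. With the B lymphocyte mean as a covariate the values were -0.85 (limma adjusted p = 0.128) and -0.36 (limma adjusted p = 0.268). With the mean of skeletal and cardiac muscle markers, 5.65 to 8.34 on young and 5.34 to 5.90 on aged arrays, they were -0.68 (limma adjusted p = 0.179) and -0.37 (limma adjusted p = 0.218). The smooth muscle mean left both calls in place. Without aged knockout arrays 1 and 2 together, the differences were -0.66 (limma adjusted p = 0.0704) and -0.29 (limma adjusted p = 0.142). The part of these cell types in the fall of either gene was not tested.

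Leaving out 1 array at a time kept Errfi1 between -0.83 and -0.69, and 10 of 13 fits called it. It was not called without young MR-intact array 2 (limma adjusted p = 0.0578), young knockout array 1 (limma adjusted p = 0.052) or young knockout array 2 (limma adjusted p = 0.0516). Pik3r1 stayed between -0.41 and -0.32, but only 3 of 13 fits called it: those without aged MR-intact array 4, aged knockout array 2 or aged knockout array 3. Its limma adjusted p ran from 0.0233 to 0.0866.

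**Figure D2:**
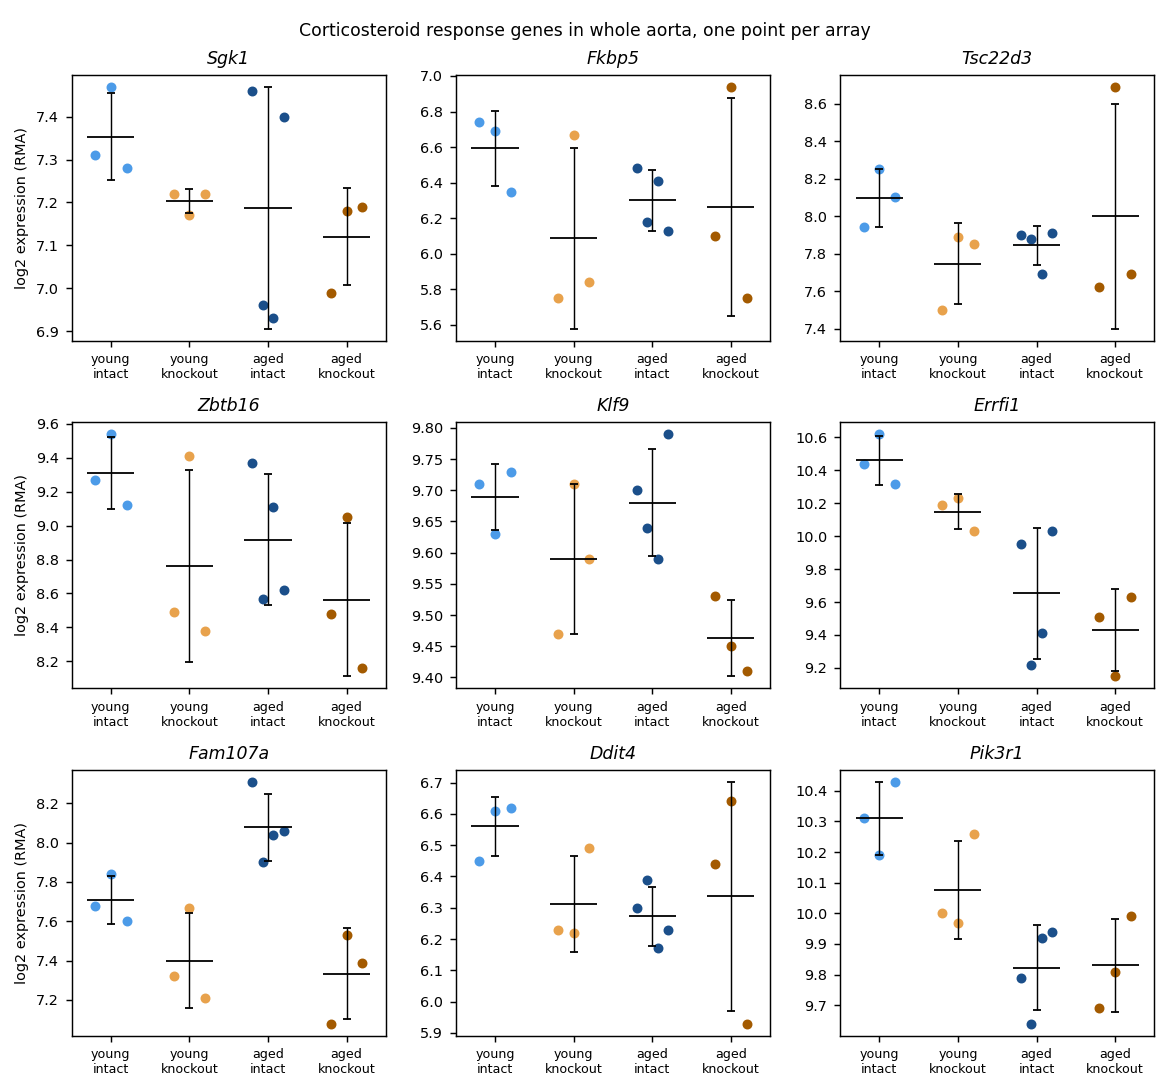
Log2 expression of the 9 genes on each of 13 arrays, by group, each panel on its own axis. Points are arrays, bars are group means and whiskers are 1 SD (n = 3, or 4 in aged MR-intact). Errfi1 and Pik3r1 are lower in aged aorta, and Fam107a is lower in aged knockout than in aged MR-intact aorta. Fkbp5 and Zbtb16 spread widely in both knockout groups, and Tsc22d3 in the aged one, where array 2 reads 8.69.

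Ddit4 and Sgk1, the other members tied to PI3K signalling, were not called in any comparison. Ddit4, an inhibitor of mTOR complex 1 that stress and steroids induce, read 6.45, 6.61 and 6.62 on young and 6.30, 6.39, 6.17 and 6.23 on aged MR-intact arrays. Those groups did not overlap, and the difference was -0.29 (95% interval -0.59 to 0.01, limma adjusted p = 0.603, exact permutation p = 0.0286, which is the lowest value that 4 arrays against 3 allow). Young knockout arrays read 6.23, 6.22 and 6.49 and aged knockout arrays 6.44, 6.64 and 5.93. These overlapped, with a difference of 0.02 (95% interval -0.30 to 0.35), which became -0.13 without aged knockout array 2.

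Sgk1 encodes a kinase of the AKT family that aldosterone induces in kidney epithelium, where it keeps sodium channels at the surface. Young MR-intact arrays read 7.31, 7.47 and 7.28 and young knockout arrays 7.22, 7.17 and 7.22, so that all 3 knockout arrays were lower. That difference was -0.14 (95% interval -0.44 to 0.15, limma adjusted p = 1, exact permutation p = 0.1, which is the lowest value that 3 arrays against 3 allow). In aged aorta MR-intact arrays read 7.46, 6.96, 6.93 and 7.40 and knockout arrays 6.99, 7.18 and 7.19. Here the MR-intact arrays fell into a high and a low pair on either side of the knockout arrays, and the difference was -0.07 (95% interval -0.34 to 0.20). The age difference of Sgk1 was -0.16 among MR-intact arrays (95% interval -0.43 to 0.11). Among knockout arrays it was -0.09 (95% interval -0.38 to 0.21).

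Sgk1 is shown with its promoter because it held the only full match to the receptor element among the promoters of these genes. Promoter windows of 300 bases, 250 before to 50 after a transcript start, came from RefSeq on build GRCm38.p6. In all, 19 windows matched 8 of the 9 genes, and Zbtb16 had none. The core motif TGTTCT and its inverted repeat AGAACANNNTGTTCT, which contains that motif on both strands, were searched on both strands. The core motif occurred in 6 of the 19 windows, of 3 genes (Sgk1, Tsc22d3 and Fam107a), and in 19% of all 32851 windows. The full repeat stood in 1 window of Sgk1, 189 bases before the start, and in 0.00913% of all windows, which is 3 in number. At 2 mismatches or fewer 1.84% of all windows held it, and at 3 or fewer 14.5%. The 250 bases before that Sgk1 start, at chr10:21993640-21993889 on the + strand, read 5′ to 3′ as follows, with the letters that match the repeat in capitals.
Sgk1 promoter: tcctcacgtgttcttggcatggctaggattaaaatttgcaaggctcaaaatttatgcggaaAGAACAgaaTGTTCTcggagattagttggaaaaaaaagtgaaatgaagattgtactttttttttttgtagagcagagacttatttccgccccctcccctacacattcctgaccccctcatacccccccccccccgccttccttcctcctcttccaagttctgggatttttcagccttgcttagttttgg
The best match to the repeat in any window of each gene, on the gene's strand and with matching letters in capitals, shows how far the other promoters were from it.
Sgk1: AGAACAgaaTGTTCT
Fam107a: tGgACAtggTGTTCT
Errfi1: AaAACtcggTGTcCT
Tsc22d3: cGAgCAgttTtTaCT
Klf9: gGAACggaacGgTCg
Ddit4: AGgAgAgaacGTTgc
Pik3r1: AGAgtgctcgGaTCT
Fkbp5: tGAAgAggcgGagaT
These matches had 0 mismatches for Sgk1, 2 for Fam107a, 3 for Errfi1, 4 for Tsc22d3, 5 for Klf9, Ddit4 and Pik3r1, and 6 for Fkbp5. Sgk1 had 6 windows, Fam107a and Tsc22d3 had 3, Errfi1 and Pik3r1 2, and Klf9, Ddit4 and Fkbp5 1. More windows give more room for a close match, so the genes are not on equal terms. A match is a description of letters in this window, not a bound site, and enhancers outside it were not searched.

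Fam107a was the member with the largest difference between genotypes, and it did not pass the test. Its protein binds actin and is induced by stress and glucocorticoids in brain. Aged MR-intact arrays read 8.31, 7.90, 8.04 and 8.06 and aged knockout arrays 7.08, 7.53 and 7.39. Every aged knockout array was below every aged MR-intact one. The difference was -0.74 (95% interval -1.04 to -0.45, SE 0.13, limma adjusted p = 0.0571, exact permutation p = 0.0286, the smallest possible), or 0.597 of the MR-intact level. Young MR-intact arrays read 7.68, 7.84 and 7.60 and young knockout arrays 7.32, 7.67 and 7.21, where 1 knockout array reached into the MR-intact range, and the difference was -0.31 (95% interval -0.62 to 0.01, limma adjusted p = 1). Over both ages it was -0.52 (95% interval -0.74 to -0.31, limma adjusted p = 0.245, exact permutation p = 0.00286 over 700 regroupings within age).

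With age Fam107a differed by 0.37 in MR-intact aorta, where all 4 aged arrays were above all 3 young ones, and by -0.07 in knockout aorta. The difference of these changes was -0.44 (95% interval -0.87 to -0.01), and limma did not call it over all genes (limma adjusted p = 0.609). In aged aorta the genotype difference was called with the arrays centred on their medians (-0.79, limma adjusted p = 0.0404). It was also called without aged MR-intact array 2 (-0.80, limma adjusted p = 0.0432), without aged knockout array 3 (-0.77, limma adjusted p = 0.0178) and without young knockout array 3 (-0.74, limma adjusted p = 0.0437). With the B lymphocyte mean as a covariate, which did not overlap between the aged genotypes, it was -0.42 (limma adjusted p = 0.334). Without aged knockout arrays 1 and 2 together, which left only array 3 in that group, it was -0.69. The mean of the smooth muscle markers was 10.62, 9.93 and 10.52 on aged knockout arrays 1, 2 and 3 and 10.54 to 10.91 on aged MR-intact arrays, which overlapped. None of the 12 was called by limma, and 11 had an unadjusted p under 0.05, all lower in the knockout. Of all genes, 17.6% had such a p in either direction. With that mean as a covariate the difference in Fam107a was -0.81 (limma adjusted p = 0.152), and without aged knockout array 2 it was -0.84 (limma adjusted p = 0.0626). The fibroblast mean, given above, did not overlap between the aged genotypes. In the knockout 11 of its 12 markers were below 0, against 43.6% of all genes. None was called by limma, and 8 had an unadjusted p under 0.05, against the same 17.6% of all genes. With the fibroblast mean as a covariate Fam107a differed by -0.84 (limma adjusted p = 0.405), in a fit that can hardly tell that mean from genotype in aged aorta.

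Across all 13 arrays Fam107a followed Nr3c2 with r = 0.80 (Spearman's rho = 0.80, and r = 0.89 without the 2 arrays farthest from the Nr3c2 median). Within groups r was 0.04, so the likeness lay in the group means and not among arrays of a group. Klf9 had r = 0.56 with Nr3c2 (0.06 within groups), and the other 7 members lay between -0.17 and 0.37. Within groups Sgk1 (0.70), Pik3r1 (0.67) and Errfi1 (0.57) had the highest r with Nr3c2, and Fkbp5 (-0.52) and Zbtb16 (-0.48) the lowest. The arrays share 1 normalization and the design itself, so these values only describe the pattern. The promoter of Fam107a is shown because this gene differed most between genotypes. The 250 bases before its start, at chr14:8309780-8310029 on the - strand of GRCm38.p6, held the best match 119 bases before the start, with 2 mismatches.
Fam107a promoter: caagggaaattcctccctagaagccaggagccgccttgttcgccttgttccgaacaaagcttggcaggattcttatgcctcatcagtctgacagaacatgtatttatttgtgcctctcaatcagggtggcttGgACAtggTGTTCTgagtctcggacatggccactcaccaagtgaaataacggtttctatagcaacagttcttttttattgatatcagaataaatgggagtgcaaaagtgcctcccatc
Another annotated start of Fam107a, 2 bases away, shares this match. A further one, with its window at chr14:8317558-8317857, held no core motif, and its best match had 5 mismatches.

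Klf9 encodes a zinc finger factor that both receptors and the circadian clock induce. Aged MR-intact arrays read 9.70, 9.64, 9.59 and 9.79 and aged knockout arrays 9.53, 9.45 and 9.41. All 3 knockout arrays were lower, by -0.22 (95% interval -0.38 to -0.06, limma adjusted p = 0.151, exact permutation p = 0.0286, the smallest possible). In young aorta MR-intact arrays read 9.71, 9.63 and 9.73 and knockout arrays 9.47, 9.71 and 9.59, which overlapped, with a difference of -0.10 (95% interval -0.27 to 0.07). Over both ages the difference was -0.16 (95% interval -0.28 to -0.04, limma adjusted p = 0.371). Klf9 varied little within any group, with SDs of 0.05 to 0.12. The mean of 20 circadian clock genes was 7.98 to 8.19 on aged MR-intact and 7.78 to 7.95 on aged knockout arrays, in the same direction as Klf9, and the part of collection time was not tested.

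Fkbp5, Zbtb16 and Tsc22d3 are regarded as sensitive readouts of glucocorticoid action: a co-chaperone that lowers the receptor's affinity for hormone, a zinc finger transcription factor, and a leucine zipper protein that restrains NF-kB. None was called by limma in any comparison. Fkbp5 read 6.74, 6.69 and 6.35 on young MR-intact and 5.75, 6.67 and 5.84 on young knockout arrays. In aged aorta it read 6.48, 6.18, 6.41 and 6.13 on MR-intact and 6.10, 6.94 and 5.75 on knockout arrays. Knockout array 2 was the highest of its group at both ages. The young difference was -0.50 (95% interval -1.12 to 0.11) and the aged one -0.03 (95% interval -0.61 to 0.54). Without array 2 of the knockout group in question these were -0.80 and -0.37. As that array was the highest of its group, leaving it out could only lower the difference. Replicate numbers only name arrays, so nothing links array 2 of the young group to array 2 of the aged one.

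Zbtb16 read 9.27, 9.54 and 9.12 on young MR-intact and 8.49, 9.41 and 8.38 on young knockout arrays. On aged arrays it read 9.37, 8.57, 9.11 and 8.62 for MR-intact mice and 8.48, 9.05 and 8.16 for knockouts. Array 2 again stood above the other knockout arrays at either age, so leaving it out could only lower the knockout difference. The genotypes overlapped. Differences were -0.55 in young (95% interval -1.19 to 0.10), -0.36 in aged (95% interval -0.96 to 0.25) and -0.45 over both ages (95% interval -0.89 to -0.01, limma adjusted p = 0.453). Without young knockout array 2 the young difference was -0.87 (limma adjusted p = 1), and without aged knockout array 2 the aged one was -0.60 (limma adjusted p = 0.473).

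Tsc22d3 read 7.94, 8.25 and 8.10 on young and 7.90, 7.88, 7.69 and 7.91 on aged MR-intact arrays. The aged arrays were all lower, with a difference of -0.26 (95% interval -0.71 to 0.20, limma adjusted p = 0.834). Young knockout arrays read 7.50, 7.89 and 7.85, all below the young MR-intact ones, with a difference of -0.35 (95% interval -0.84 to 0.14, limma adjusted p = 1). Aged knockout arrays read 7.62, 8.69 and 7.69, so that the mean of 8.0 rested on array 2. The change with age in knockout aorta was 0.25 with that array and -0.09 without it, and the knockout difference in aged aorta was 0.16 with it and -0.19 without it.

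Spread within groups ran over a wide range. In young knockout aorta the SDs of Fkbp5 and Zbtb16, 0.51 and 0.57, were larger than those of 98.8% and 99% of all genes. Errfi1 and Zbtb16 in aged MR-intact aorta, with SDs of 0.40 and 0.39, exceeded 98.3% and 98.1% of all genes. Among the lowest was Sgk1 in young knockout aorta, with an SD of 0.03 above that of 11.7% of genes. Klf9 followed, above 15.1% in aged knockout and 24.1% in young MR-intact aorta.

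Fkbp5 and Zbtb16 were high and low on the same arrays. Over the deviations of 13 arrays from their group means their r was 0.91 (rho = 0.88, and 0.84 without the 2 farthest arrays). Without aged knockout array 2 it was 0.91. On the values as they stand r was 0.87, which placed Zbtb16 at rank 1 among 21224 genes by likeness to Fkbp5, and Fkbp5 at rank 2 for Zbtb16. Of all 36 pairs of members, 6 had an r within groups of 0.6 or more and 10 lay below 0, with a median of 0.18. The other 5 high pairs were Zbtb16 with Fam107a (0.79), Sgk1 with Errfi1 (0.77), Fkbp5 with Tsc22d3 (0.70), Fkbp5 with Fam107a (0.68) and Tsc22d3 with Ddit4 (0.65). Without aged knockout array 2, Fkbp5 with Tsc22d3 came to 0.49 and Tsc22d3 with Ddit4 to 0.45, while Sgk1 with Errfi1 came to 0.87. Errfi1 and Pik3r1, which fell together with age, had an r of 0.14 within groups. All arrays share the normalization, and these correlations describe the arrays only.

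**Figure D3:**
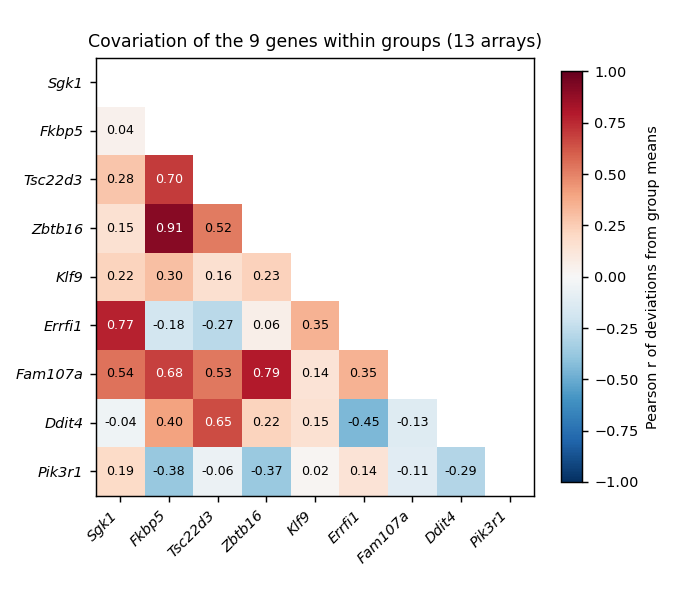
Pearson correlation of each pair of the 9 genes over the deviations of 13 arrays from their group means. Colour runs from blue at -1 to red at 1 and the number is r. Fkbp5 and Zbtb16 reach 0.91, and Errfi1 with Ddit4 is the lowest pair at -0.45.

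**Figure D4:**
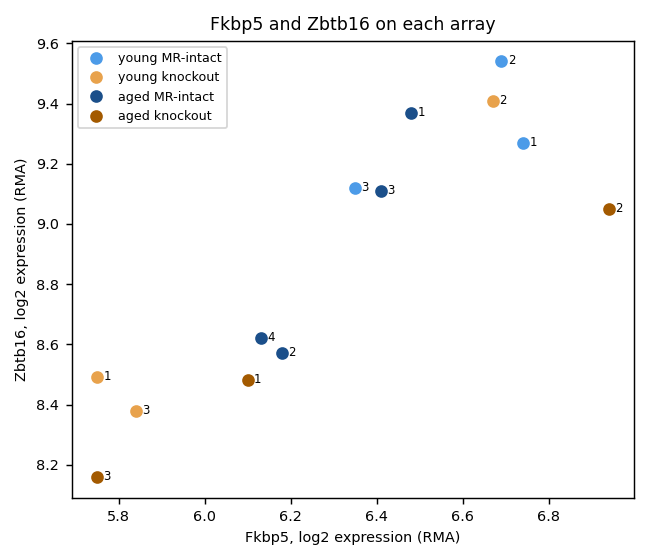
Log2 expression of Zbtb16 against Fkbp5, 1 point per array, coloured by group and marked with the replicate number. Knockout array 2 lies above the other knockout arrays in both genes at either age, with Fkbp5 at 6.67 in young and 6.94 in aged aorta.

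Genes whose pattern over the 13 arrays was most like that of a member were named by Pearson's r alone. For Errfi1 they were Auts2 (0.93), Wdr95 (0.91) and Lrig1 (0.91), the last of which encodes another inhibitor of epidermal growth factor receptors. For Pik3r1 they were Ammecr1l (0.87), Eif4e2 (0.87) and Edn1 (0.86), the gene of endothelin 1. Fam107a was most like Layn (0.87), Npy1r (0.87) and Cep290 (0.86). Fkbp5 was followed by Ppl (0.83), Synj1 (0.82) and Car10 (0.81) outside the list, and Zbtb16 by P4ha2 (0.89), Bcl2l1 (0.85) and Tspyl4 (0.82). Sgk1 was nearest to Mapk1ip1 (0.90), Tsc22d3 to Lyrm1 (0.92), Klf9 to Spred2 (0.91) and Ddit4 to Safb (0.85). The mean standardised level of all 9 members was highest on young MR-intact arrays (0.70, 1.02 and 0.70) and lowest on aged knockout arrays 3 and 1 (-1.01 and -0.86). Aged knockout array 2 was at 0.17. Mn1 (0.92), Fhl2 (0.88) and Bcl2l1 (0.86) were most like that mean.

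Counted as a list, the members were mostly on the lower side in knockout and in aged aorta, and most differences were within their error. In young knockout aorta all 9 differences were below 0, with a median of -0.31 against 0.01 over all genes, of which 45.4% were below 0. None was called, against 0.0% of all genes, and none had an unadjusted limma p under 0.05, as 2.59% of all genes did. In 3 members (Sgk1, Tsc22d3 and Errfi1) the young groups did not overlap, all with the knockout lower, against 9.48% of all genes, or 4.06% with the knockout lower. Skeletal and cardiac muscle markers leaned the same way in young aorta, with 15 of 16 below 0 and a median of -0.66. Their mean was 8.34, 7.92 and 5.65 on young MR-intact and 5.96, 6.64 and 7.31 on young knockout arrays, which overlapped. The part of such muscle in the members' differences was not tested. In aged aorta 6 of 9 knockout differences were below 0, with a median of -0.07. None was called by limma, against 0.0565% of all genes, or 0.0188% called lower, and 2 had an unadjusted p under 0.05 (Fam107a and Klf9), as 17.6% of all genes did. In these 2 the groups did not overlap, with the knockout lower, against 10.4% of all genes, or 5.11% with the knockout lower. Without aged knockout arrays 1 and 2 together, which left only array 3 in that group, that median was -0.27. Of all arrays, aged knockout array 3 had the lowest mean standardised level of the members (-1.01). Without array 2 alone, Ddit4 went from 0.06 to -0.09 and Tsc22d3 from 0.16 to -0.19, which left only Pik3r1 above 0 (0.02). Array 2 had the highest aged knockout reading of Ddit4 and of Tsc22d3, so their differences could only fall. Over both ages all 9 were below 0 with a median of -0.16, none was called by limma, against 0.0% of all genes, and 3 had an unadjusted p under 0.05 (Zbtb16, Klf9 and Fam107a), as 10.9% of all genes did. None was apart at both ages, against 0.556% of all genes, or 0.212% with the knockout lower.

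In MR-intact aorta 8 of 9 members were lower with age, all but Fam107a, with a median of -0.29 against 0.01 over all genes. None was called by limma, against 0.236% of all genes, or 0.0565% called lower, and 3 had an unadjusted p under 0.05, as 8.63% of all genes did. In 5 members the ages did not overlap, 4 of them lower in aged aorta, against 10.9% of all genes, or 4.8% lower. In knockout aorta 6 of 9 were below 0, with a median of -0.09. None was called by limma, against 0.735% of all genes, or 0.419% called lower, and 1 had an unadjusted p under 0.05 (Errfi1), as 15.8% of all genes did. The same gene alone did not overlap between ages, against 16.4% of all genes, or 8.38% lower. Without aged knockout array 2, Fkbp5 went from 0.18 to -0.16, Tsc22d3 from 0.25 to -0.09 and Ddit4 from 0.02 to -0.13. All 9 were then below 0 in knockout aorta. That array had the highest aged knockout reading in each of the genes that changed sign, so their differences could only fall. Averaged over genotypes 8 of 9 were below 0, Tsc22d3 by less than the rounding, and 1, Errfi1, was apart between ages in both genotypes, against 2.53% of all genes, or 1.19% lower. Without aged knockout arrays 1 and 2, which left only array 3 in that group, the median difference of aging between genotypes was -0.04. With all arrays the differences of aging between genotypes were above 0 in 7 of 9, with a median of 0.19. None of those was called by limma, against 0.0% of all genes, and 1 had an unadjusted p under 0.05, as 8.12% of all genes did. Both knockout comparisons share arrays with both aging comparisons, so their values are set side by side and not compared as separate evidence. The single-gene permutation tests numbered 54 over the members, and their p-values are unadjusted.

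**Figure D5:**
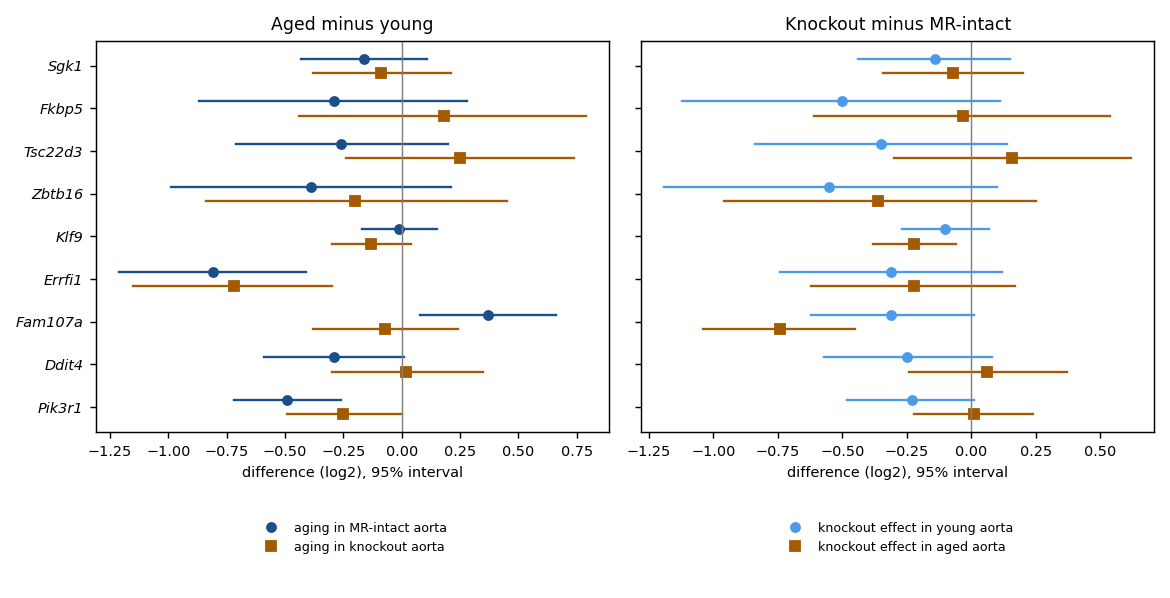
Log2 differences of the 9 genes with their 95% intervals from limma, with aging on the left and knockout on the right. Circles are MR-intact (left) or young aorta (right) and squares are knockout (left) or aged aorta (right). Intervals exclude 0 for Errfi1 on the left in both genotypes, for Pik3r1 and Fam107a there in MR-intact aorta, and for Fam107a and Klf9 on the right in aged aorta.

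Other targets of these receptors did not pass the test. Of 34 further genes known to be induced or repressed by either receptor, none was called by limma in any of 7 comparisons. Over both ages 18 of the 34 were below 0 in the knockout, with a median of -0.01, against -0.16 for the members. In young aorta 21 were (median -0.08) and in aged aorta 15 (median 0.04). With age averaged over genotypes 19 of these 34 genes were below 0 (median -0.01). Between 1 and 11 of them had an unadjusted p under 0.05. The 11 were in aged knockout against aged MR-intact aorta, where 17.6% of all genes had one, and the 1 was in young aorta, where 2.59% had one. The largest values with age averaged over genotypes were Cdkn1a, a cell cycle inhibitor, at -0.66 (limma adjusted p = 0.0717), and Edn1 at -0.45 (limma adjusted p = 0.0587). In aged knockout against MR-intact aorta Anxa1, an anti-inflammatory protein gene, differed by -0.75 (limma adjusted p = 0.0798). Of 12 sodium transport genes, the classical epithelial targets of aldosterone, none was called by limma in any comparison, with 0 to 3 at an unadjusted p under 0.05. The 3 were in aged knockout against aged MR-intact aorta, where 17.6% of all genes had one. Stk39, a kinase that activates sodium chloride cotransporters, had the largest negative value in aged knockout aorta, at -0.38 (limma adjusted p = 0.135).

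Among 13 genes of the receptors and of hormone access, Srd5a1 fell with age. It encodes steroid 5-alpha-reductase, an enzyme that also inactivates corticosterone, and its difference averaged over genotypes was -0.44 (SE 0.06, limma adjusted p = 0.0023). Knockout aorta alone gave -0.56 (limma adjusted p = 0.0123). Of 23 chaperones and coregulators of the receptors, Hspa8, a heat shock cognate protein gene, rose by 1.31 with age in knockout aorta (SE 0.25, limma adjusted p = 0.038). Averaged over genotypes it differed by 0.54 (limma adjusted p = 0.131). Of 23 partners in PI3K, AKT and mTOR signalling, Egfr, the receptor that the Errfi1 product inhibits, fell by 0.32 with age averaged over genotypes (SE 0.07, limma adjusted p = 0.0482), and no other was called in any comparison. Irs1, an adaptor that recruits PI3 kinase to the insulin receptor, differed by -0.50 in MR-intact aorta (limma adjusted p = 0.223). None of 15 paralogues of the members was called by limma in any comparison, with 1 to 4 at an unadjusted p under 0.05. The 4 were in aging averaged over genotypes, where 16.4% of all genes had one. Pik3r3, a relative of Pik3r1, differed by -0.38 in aged knockout against MR-intact aorta (limma adjusted p = 0.084). None of 20 circadian, 20 immediate early or 17 hypoxia genes was called by limma in any comparison, with up to 11, 4 and 3 at an unadjusted p under 0.05. The 11 clock genes were in MR-intact aging, where 8.63% of all genes had one. The 4 and the 3 included knockout in aged aorta, where 17.6% had one. The clock genes with the largest values were Npas2 at -1.33 (limma adjusted p = 0.077) with age averaged over genotypes and Ciart at -1.06 (limma adjusted p = 0.0916) in aged knockout against MR-intact aorta.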

How the data were processed

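Groups come from the genotype and age labels, and replicate numbers, given in accession order, only name arrays. Per gene and array, the authors deposited a log2 level from RMA, and the submitters' processing notes name affy and limma too. No source used here gives their versions, the platform or the chip definition. The authors also deposited the same log2 values rounded to 2 decimals. The 13 value columns of the deposited workbook have plain numbers as headers and hold log2 values, matched to samples by the number in each title. Features were named through their Entrez IDs with the mouse table of GRCm38.p6 (20768 of 21225 matched, 457 kept the deposited name).

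All 21225 genes and 13 arrays entered 1 limma model (limma 3.58.1, R 4.3.3; lmFit and eBayes) with 4 group means, no further scaling and no filter. A gene was called at a two-sided Benjamini-Hochberg adjusted p under 0.05. Exact permutation tests regrouped arrays, within strata for averaged contrasts. The fit was tested on simulated data. The members and gene lists were chosen with earlier results of these data known. Text names all members in every contrast, called genes of the other lists or some of the 2 with the largest differences, and the genes most correlated with each member, leaving out predicted genes, olfactory and vomeronasal receptors and small RNAs. Some lists share genes. The number of arrays limits precision. Alternatives covered normalization, array weights, filters, the prior, array subsets and marker means as covariates. The striated muscle, smooth muscle and fibroblast covariates and the blocks of close title numbers were chosen after seeing the data. A result of 1 other gene of the lists is not reported here.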

Additional observations from a re-analysis of the deposited data

Results flagged for a closer look

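Among the 9 groups of 4 arrays tested, 1 per gene in aged MR-intact aorta, Tsc22d3 had 1 array far from the others: replicate 3 read 7.69, against 7.88 to 7.91 on the other 3. Chance sets about 1 in 20 such groups apart. Aging in MR-intact aorta was -0.26 for this gene with all arrays. The limma test of the difference in aging between genotypes called no member, and 1 had an unadjusted p under 0.05.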

How the results depend on the processing

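Of 1584 values recomputed for 63 pairs of a member and a contrast under 26 alternatives, 1462 kept their sign and their side of the threshold, 21 lost a call, 8 gained one and 93, none called, changed sign. Changes of sign touched 29 pairs and were not limited to values near 0. The largest such pair was Errfi1 with age in knockout aorta, at -0.72 in the report's fit. The number of members called with age averaged over genotypes, 2, was 0 with the B lymphocyte, striated muscle or fibroblast mean as a covariate. It was 0 to 2 with 1 array left out. In MR-intact aorta it rose from 0 to 2 with array weights and to 1 with the smooth muscle covariate. For knockout in aged aorta it rose from 0 to 1 with arrays centred on their medians and was 0 to 1 with 1 array left out, as it was over both ages, where only the fit without aged knockout array 3 called Fam107a. The members' median moved by more than its SD between replicates, 0.14, from -0.29 to -0.12 (MR-intact aging, striated muscle covariate), from -0.09 to -0.25 (knockout aging, fibroblast covariate), from -0.12 to -0.29 (averaged aging) and from -0.07 to -0.27 (knockout in aged aorta), both without aged knockout arrays 1 and 2. The median interaction of 0.19 was -0.04 without those arrays and -0.02 with the fibroblast covariate. Leaving out arrays 1 and 2 left only array 3 in the aged knockout group. The cause of these moves was not tested. Genes called over all 21225 ranged from 6 to 1483 (MR-intact aging, 50 in the report's fit), 1 to 885 (knockout aging, 156), 60 to 785 (averaged aging, 316), 0 to 1442 (knockout in aged aorta, 12), 0 to 292 (knockout over both ages, 0) and 0 to 16 (interaction, 0). No paired analysis was possible because the groups share no replicate number in the labels, and the numbers used here follow accession order. Numbers in the titles lie close together for 6 couples of an MR-intact and a knockout array of 1 age, and are consecutive in only some of them. These numbers have no stated meaning, and 1 number has neighbours on both sides. The deviations of coupled arrays from group means correlated between -0.28 and 0.28 across genes, below 0 in 4 of 6. Of 6 MR-intact arrays, 2 correlated best with the knockout array of their own couple. With these couples as blocks, a choice made after seeing the data, no member was called in a knockout contrast or the interaction. This fit leaves out aged MR-intact array 2, which has no couple. In aged aorta Errfi1 was -0.37 (limma adjusted p = 0.0665) with the blocks and -0.22 (limma adjusted p = 0.571) in the report's fit. Over both ages Errfi1 was -0.34 (limma adjusted p = 0.186), Fam107a -0.55 (limma adjusted p = 0.189) and Zbtb16 -0.51 (limma adjusted p = 0.214). Each of these was lower in 6 of 6 couples, and every other member in 4 or 5 of 6. The share of all genes that were lower in as many couples was not computed, so these counts only describe the couples.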
